A study of Mus musculus with 22 samples.

Results

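MC38 tumors growing in mice that lack RAG1 were compared between day 13 and day 23 after injection, with 3 tumors at each day. Membership was set by the labels alone: the 6 libraries titled as RAG1 tumors of day 13 or day 23 were taken, out of 22 samples in the series and 16 libraries in the table of normalized counts used here. MC38 is a mouse colon carcinoma cell line, and the cells were injected under the skin of the left flank. The hosts were female RAG1-/- mice of the B6.129S7-Rag1tm1Mom/J strain, 8 to 12 weeks old, and no treatment is named for either day. All cells of such a host lack RAG1, so T cells and B cells are not made, whereas NK cells and myeloid cells are kept, and each tumor was divided into pieces of which 1 gave the RNA. The other libraries of the table were 3 wild-type tumors at day 23, 3 wild-type tumors at day 46, 2 libraries of MC38 cells and 2 of skin. The wild-type hosts were female C57BL/6N mice, also 8 to 12 weeks old, so the named strain differs along with the genotype. Each library holds all cells of its tumor piece, so fewer cells of a type and less RNA per cell cannot be told apart. The labels do not say that the 3 replicates of a day are separate mice, and p-values measure only the spread between these samples.

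RAG1 is part of the recombinase that joins the gene segments of antigen receptors, and without it neither T cells nor B cells mature. A subcutaneous tumor lies between skin, fat and a thin sheet of skeletal muscle, and it grows around host vessels, fibroblasts and macrophages. Where growth outruns the blood supply, the factor HIF1 is stabilized and turns on genes for acid handling and glycolysis.

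The 3 day 13 libraries held 9790077 to 11581457 reads and the 3 day 23 libraries 5589151 to 26134241 reads, so that 3 reads correspond to 1.33 to 6.38 normalized counts in these 6 libraries. Rag1 had 14 reads over the 3 day 13 tumors and 9 over the 3 day 23 tumors. No wild-type tumor held more than 0.628 normalized counts, which is 1 read of wild-type day 46 replicate 3. The 3′ tags of the RAG1-/- tumors may lie outside the deleted part of the gene. In that case they check nothing, and the genotype is used as labelled. The T-cell receptor genes Cd3e and Trac and the B-cell gene Cd79a had 0 reads in all 6 libraries, which allows up to 3 reads in each. The summed level of 20 T-cell genes was 14.5 to 61.0 normalized counts at day 13 and 23.6 to 53.5 at day 23. The summed level of 15 B-cell genes was 73.8 to 159 and 48.9 to 132, most of it from Ighm, the heavy chain of IgM. The keratin genes Krt8 and Krt18, fixed as markers of MC38, were near 0 in the cultured MC38 cells too and could not be used to follow the tumor cells.

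Across 14746 genes tested by limma over the 12 tumors, 0 genes passed an adjusted p of 0.05 between day 13 and day 23, and 1722 (11.7%) had an unadjusted p under 0.05. edgeR on the recovered reads also called 0 genes, with 1704 (11.6%) at an unadjusted p under 0.05. DESeq2, the tool of the study, run on the same reads, called 206 of 14717 genes (1.4%), 89 higher at day 23 (0.605%) and 117 lower (0.795%), with 1789 (12.2%) at an unadjusted p under 0.05. A limma fit of the 6 tumors alone called 23 of 14658 genes (0.157%), 17 higher (0.116%) and 6 lower (0.0409%), of which 21 were also DESeq2 calls. The 3 values of one day all lay above the 3 of the other day in 2861 genes (19.4%), 1398 higher at day 23 (9.48%) and 1463 lower (9.92%). An exact permutation test of a single gene cannot go below p = 0.1 with 3 tumors against 3. The genes below are therefore given by their values, and a call is always named with the tool that made it. The DESeq2 count depended on single tumors: without day 13 replicate 1 or 3 it was 21 or 86, and without day 23 replicate 1, 2 or 3 it was 35, 349 or 77. In all 6 fits that left out 1 of the tumors, 5 genes were called higher and 6 lower. These were Arsb, Car9, Gabarap, S100a11 and Slc14a1, higher at day 23, and Acta1, Mylpf, Rpl4, Rps24, Tcap and Tnnt3, lower.

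**Figure D1:**
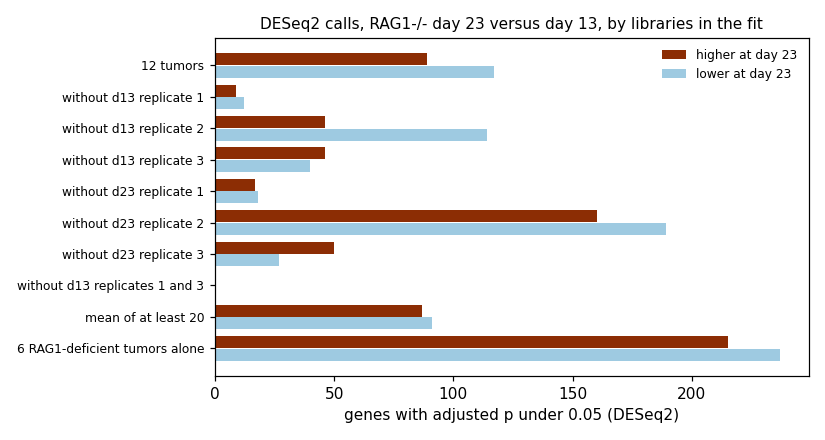
Number of genes (horizontal axis) called by DESeq2 on recovered reads at an adjusted p under 0.05, with dark bars for genes higher at day 23 and light bars for genes lower, by the libraries in each fit. With all 12 tumors there were 89 higher and 117 lower, and with day 13 replicates 1 and 3 both left out there were 0.

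Genes of skeletal muscle had the widest gap between the days. All 30 tested genes of the sarcomere, the contractile unit of muscle, had lower values at day 23, with a median log2 fold change of -4.53 against -0.01 over all genes tested. Of these 30 genes, 27 had an unadjusted p under 0.05, 20 did not overlap between the days, 19 were DESeq2 calls and 0 passed limma. Over all genes tested, 6.14% were lower at that p, 9.92% were lower without overlap and 0.795% were DESeq2 calls lower at day 23. Of 22 tested genes of muscle calcium handling and energy supply, 18 had lower values. Their median log2 fold change was -3.53 (-3.01 with genes at 0 held at their bound). Of the 22, 10 were lower without overlap and 8 were DESeq2 calls, against the same 9.92% and 0.795% of all genes. The summed sarcomere level was 16871, 2140 and 19274 normalized counts in day 13 replicates 1, 2 and 3, and 1667, 1660 and 1999 in the day 23 tumors. Cultured MC38 cells held 1334 and 1341, and skin, which carries its own muscle sheet, held 156730 and 261950. By this sum day 13 replicates 1 and 3 lay far above the other tumors, and day 13 replicate 2 lay close to the day 23 tumors. The sum includes genes that MC38 cells express. In single genes with little signal in MC38 cells, such as Acta1 below, replicate 2 lay further above the day 23 tumors.

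Acta1, the skeletal muscle actin, measured 4374, 152 and 4965 normalized counts at day 13 and 30.1, 36.2 and 10.6 at day 23. The days did not overlap, and the lowest day 13 tumor was replicate 2. The log2 fold change was -5.97 ± 1.46 (SE, n = 3 per day; limma adjusted p = 0.172; DESeq2 adjusted p = 0.00155). Tnnt3, the fast skeletal troponin T that anchors the calcium switch of the thin filament, measured 853, 50.04 and 1016 at day 13 and 1.31, 0 and 5.74 at day 23. All 3 day 13 values were above all day 23 values (log2 fold change -7.15 ± 1.48, limma adjusted p = 0.167, DESeq2 adjusted p = 0.00155). Mylpf, the regulatory light chain of fast myosin, measured 923, 56.7 and 1411 and then 20.9, 8.51 and 17.7 normalized counts, again without overlap (-4.75 ± 1.10, limma adjusted p = 0.167, DESeq2 adjusted p = 0.00155). Ttn, the giant spring protein titin, measured 1299, 54.5 and 808 and then 14.4, 17.0 and 10.2. Tcap, which caps titin at the edge of the sarcomere, measured 64.2, 4.45 and 118 and then 0, 0 and 1.33, where the day 23 tumors held 3 reads in all. The ratio of pooled day 13 to pooled day 23 reads, per size factor, was 76.0 for Tcap, with a 95% counting interval of 25.6 to 372. Actc1, the cardiac actin that is also made in immature or regenerating muscle, measured 33.2, 12.2 and 41.9 and then 2.62, 0 and 1.33 (-3.72 ± 0.70, DESeq2 adjusted p = 0.0055).

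Muscle genes with other roles had values of the same order in the same tumors. Ryr1, the calcium release channel, measured 186, 21.1 and 263 normalized counts at day 13 and 0, 0 and 4.42 at day 23 (-5.87 ± 1.12, limma adjusted p = 0.167, DESeq2 adjusted p = 0.00832). Ckm, the muscle creatine kinase, measured 757, 36.7 and 604 and then 6.55, 0 and 3.54. Pvalb, a calcium buffer of fast fibres, measured 186, 14.5 and 161 and then 2.62, 0 and 0.442. In each of these genes day 13 replicate 2 was the lowest day 13 tumor and still lay above every day 23 tumor. The myogenic factor Myog was at 35.3, 1.11 and 52.4 normalized counts at day 13 and had 0 reads in all day 23 tumors, which puts its day 13 mean at least 7.63-fold higher than the floor of 3 reads per library. The muscle phosphoglycerate mutase Pgam2 (69.5, 3.34 and 60.02, then 0 in each) was at least 11.4-fold higher at day 13 by the same bound, and Pdk4, a kinase that holds back glucose oxidation (164, 0 and 66.7, then 0 in each), at least 19.8-fold. In Pdk4 day 13 replicate 2 was itself at 0, so that the days overlapped. Myosin-binding Mybph (36.4, 2.22 and 53.3, then 0 in each) was at least 7.90-fold higher at day 13, and 49.9% of its exons lie opposite those of another gene. In day 13 replicate 2 the floor of 3 reads is 3.34 normalized counts, and Myog, Pgam2 and Mybph lay at or under it there. The bounds of these genes thus rest on day 13 replicates 1 and 3. Chrna1, the alpha subunit of the muscle acetylcholine receptor, had another pattern within day 13. It measured 69.5, 71.2 and 105 normalized counts at day 13 and 15.7, 21.3 and 26.5 at day 23, so that here day 13 replicate 2 was no lower than replicate 1 (-1.91 ± 0.40, limma adjusted p = 0.167, DESeq2 adjusted p = 0.00643).

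**Figure D2:**
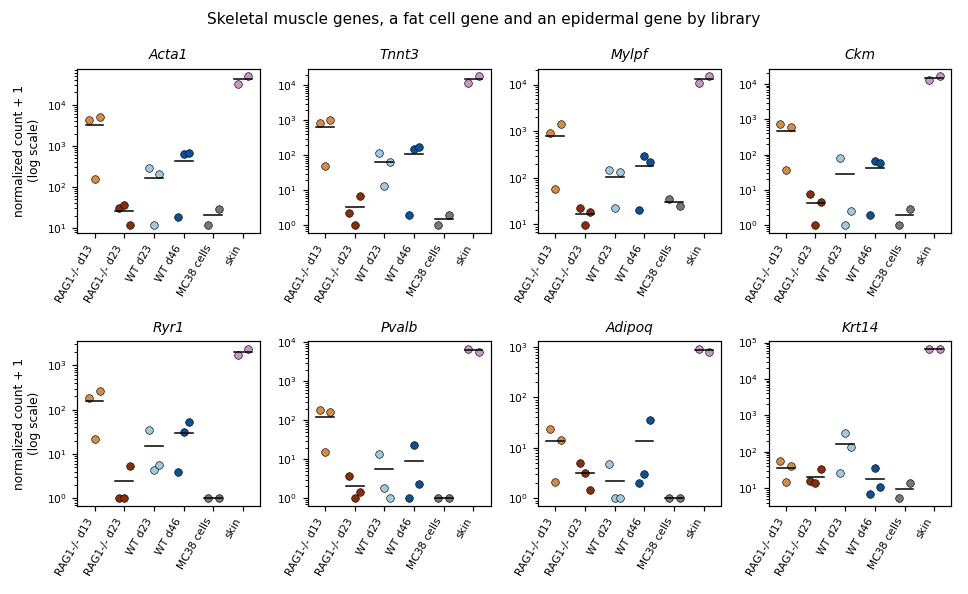
Normalized count + 1 (log axis) of 6 skeletal muscle genes, the adipocyte gene Adipoq and the keratinocyte gene Krt14 in each library of 6 groups, with points for libraries and a bar at the group mean. In the muscle panels 2 of the 3 RAG1-/- day 13 tumors stand high, the remaining one lies between them and the 3 day 23 tumors, and skin is highest.

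Leaving out day 13 replicates 1 and 3 together left 1 day 13 tumor, whose spread is then assumed to be that of the other groups. In that fit 21 of 27 tested sarcomere genes still had lower values at day 23, with a median log2 fold change of -1.67, and DESeq2 called 0 genes of any kind, with 595 at an unadjusted p under 0.05. Without day 13 replicate 2 instead, limma called 37 genes, 2 higher and 35 lower. Of the 117 genes that DESeq2 called lower at day 23, 27 were in the muscle lists, 47 (40.2%) were at or under 3 reads in both MC38 libraries and 73 (62.4%) were higher in both skin libraries than in all 6 tumors. Over all genes tested these shares were 9.64% and 31.2%. Of the 89 genes called higher, 0 were at that floor in MC38 cells. Day 13 replicate 2 was the lowest day 13 tumor in 65.8% of the genes called lower and in 33.3% of all genes tested.

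Fat and skin epithelium were checked in the same libraries. Adipoq, the adipocyte hormone adiponectin, measured 22.5, 1.11 and 13.3 normalized counts at day 13 and 3.93, 2.13 and 0.442 at day 23, with overlap between the days. Lep, the fat hormone leptin, had 0 reads in all 6 tumors, and Plin1, which coats the fat droplet, measured 12.8, 0 and 1.91 and then 0 in each. Car3, a carbonic anhydrase made in fat and in slow muscle, measured 296, 21.1 and 696 and then 1.31, 70.2 and 2.21, and Cfd, the complement factor D secreted by fat, measured 237, 42.3 and 115 and then 1.31, 109 and 0. In both genes day 23 replicate 2 lay within the day 13 range and the other day 23 tumors lay below it. Without that tumor, in a fit chosen after seeing the data, DESeq2 called both genes lower at day 23. Car3 was at a log2 fold change of -7.54 (adjusted p = 0.00874, against 0.32 with all tumors) and Cfd at -8.17 (adjusted p = 0.0158, against 0.797). The same fit raised the DESeq2 calls over all genes from 206 to 349. No other fit that left out 1 tumor called either gene (DESeq2 adjusted p of Car3 0.377 to 0.724). Of 15 tested adipocyte genes 11 had lower values at day 23, with a median log2 fold change of -0.49. Of them 2 were lower without overlap, near the share of all genes tested (9.92%), and 0 were called by limma or DESeq2. The summed adipocyte level overlapped between the days (7339 to 8493 normalized counts at day 13, 6265 to 7631 at day 23) and was 9311 and 10549 in MC38 cells, above every one of these tumors, so that this sum cannot be read as fat. Krt5, the keratin of the basal epidermis, had 0 reads in all 6 tumors, and the summed level of 20 keratinocyte genes was 453 to 570 normalized counts at day 13 and 495 to 553 at day 23.

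Vessel genes had lower values at day 23 for the most part. Of 20 tested endothelial genes 15 had lower values, with a median log2 fold change of -0.60, 6 of them at an unadjusted p under 0.05, 2 without overlap (9.92% of all genes tested) and 0 called. Apln, the vessel peptide apelin, was higher without overlap, at 308, 282 and 323 normalized counts and then 395, 470 and 415 (0.48 ± 0.21, limma adjusted p = 0.385). Flt1, the VEGF receptor 1, measured 423, 328 and 667 normalized counts at day 13 and 189, 345 and 265 at day 23. Pecam1, the adhesion molecule CD31, measured 202, 120 and 231 and then 79.9, 157 and 115. Both genes overlapped between the days, with day 13 replicate 2 the lowest of its day and day 23 replicate 2 the highest of its own. The endothelial median was -0.07 when day 13 replicates 1 and 3, the tumors with most muscle signal, were left out, and the part of muscle tissue in these values was not tested further. Among 13 tested genes of pericytes and smooth muscle 9 had lower values (median -0.65), and 1, Tagln, was a DESeq2 call (0.795% of all genes). Tagln, the actin-binding protein transgelin, measured 106, 45.6 and 109 and then 5.24, 34.0 and 9.28 normalized counts, without overlap (-2.64 ± 0.61, limma adjusted p = 0.167, DESeq2 adjusted p = 0.00753). Exons of other genes lie opposite 67.9% of its exonic bases, and the counting is not stated to use strand.

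Fibroblast and matrix genes divided. Of 19 tested fibroblast genes 9 had higher and 10 lower values (median -0.16). Dcn, the collagen-binding proteoglycan decorin, measured 6112, 3422 and 5873 normalized counts at day 13 and 6191, 10488 and 11408 at day 23, without overlap (0.86 ± 0.30, limma adjusted p = 0.291). Col1a1, the main chain of fibrillar collagen, measured 4102, 1928 and 4688 and then 731, 4592 and 1463, and its days overlapped. Mmp9, a gelatinase that cuts basement membrane collagen, measured 372, 318 and 321 at day 13 and 889, 704 and 1748 at day 23. Every day 23 tumor was above every day 13 tumor (1.61 ± 0.35, limma adjusted p = 0.167, DESeq2 adjusted p = 0.00155). The proteases Mmp10 (7.49, 15.6 and 29.5, then 32.7, 136 and 54.4) and Mmp11 (215, 289 and 274, then 297, 477 and 612) were also higher without overlap, and neither was a call. Mmp14, a membrane-bound collagenase, had the opposite order, with 2569, 3128 and 3157 and then 1407, 1943 and 2452 normalized counts (-0.64 ± 0.20, limma adjusted p = 0.254). In all, 14 of 21 matrix protease genes had higher values at day 23, with a median of 0.17.

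The clearest single gene was Car9, carbonic anhydrase IX, an enzyme of the cell surface that turns carbon dioxide into acid and bicarbonate and is a standard target of HIF1. It measured 154, 203 and 136 normalized counts at day 13 and 716, 338 and 785 at day 23. All day 23 tumors lay above all day 13 tumors, with day 23 replicate 2 the lowest of its day. The log2 fold change was 1.82 ± 0.28, with an unadjusted limma p of 7.99e-06, a limma adjusted p of 0.118, the lowest of all genes, and a DESeq2 adjusted p of 3.22e-07. MC38 cells in culture held 6.84 and 2.93 normalized counts of Car9. In the wild-type tumors Car9 measured 864, 696 and 580 at day 23 and 518, 388 and 478 at day 46, so that its day 23 values in RAG1-/- hosts lay within or below the wild-type range and its day 13 values lay below every wild-type tumor.

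Other hypoxia genes had higher values with smaller gaps. Of 20 tested hypoxia genes, Car9 included, 16 had higher values at day 23, with a median log2 fold change of 0.54. Of these, 9 were at an unadjusted p under 0.05 (5.54% of all genes tested were higher at that p). Without overlap 7 were higher (9.48% of all genes tested). The 1 DESeq2 call of the list (0.605% of all genes) was Car9 itself. Egln3, an oxygen sensor that is itself a HIF1 target, measured 555, 604 and 464 normalized counts at day 13 and 1089, 640 and 1354 at day 23. Bnip3, which directs mitochondria to autophagy, measured 2144, 2934 and 1765 and then 4005, 2892 and 4166. Day 23 replicate 2 was the lowest day 23 tumor in both genes, and in Bnip3 it overlapped with day 13. Without day 13 replicates 1 and 3 the median of the hypoxia genes was 0.28.

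Glycolysis genes showed the same direction, with 18 of 19 higher at day 23 and a median log2 fold change of 0.37. Gapdh, the glycolytic glyceraldehyde phosphate dehydrogenase, measured 1728, 2771 and 2926 normalized counts at day 13 and 6465, 6428 and 7087 at day 23. The 3 day 23 values were close together and above all day 13 values (1.46 ± 0.32, limma adjusted p = 0.167, DESeq2 adjusted p = 0.00389). Gapdh has many processed copies in the mouse genome, and reads shared with them could be split by the counting. Pgk1, phosphoglycerate kinase 1, measured 73.8, 108 and 106 and then 158, 287 and 135 (0.95 ± 0.43, limma adjusted p = 0.411). Of 19 glycolysis genes 5 were higher without overlap (9.48% of all genes tested) and 1, Gapdh, was a DESeq2 call (0.605% of all genes). Gapdh is often taken as a reference gene, and here its fitted level differed by 1.46 on the log2 scale between the days.

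The upstream sequences of 5 genes are shown so that the letters beside these 2 gene groups can be read. Each is the 250 bases before the RefSeq start site on GRCm38.p6, 5′ to 3′ on the strand of the gene. In Car9 and Gapdh the capitals mark the core of the hypoxia response element, searched as ACGTG or GCGTG on both strands. The Car9 window is chr4:43506776-43507025 (plus strand), and its end, with the match, lies in the first exon of a longer GENCODE transcript. The Gapdh window is chr6:125165774-125166023 (minus strand), and all of it lies within the span of the GENCODE gene.
Car9: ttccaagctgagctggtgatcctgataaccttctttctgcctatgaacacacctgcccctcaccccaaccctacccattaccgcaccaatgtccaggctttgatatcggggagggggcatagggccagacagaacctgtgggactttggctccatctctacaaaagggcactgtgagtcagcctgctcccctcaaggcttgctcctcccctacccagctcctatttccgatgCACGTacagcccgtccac
Gapdh: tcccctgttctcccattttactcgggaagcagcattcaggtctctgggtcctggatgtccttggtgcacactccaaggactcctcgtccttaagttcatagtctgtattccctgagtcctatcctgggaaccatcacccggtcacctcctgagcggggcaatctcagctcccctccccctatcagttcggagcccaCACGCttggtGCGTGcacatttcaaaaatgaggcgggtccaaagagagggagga
The Car9 match began 18 bases before the start and the Gapdh matches 54 and 44 bases before it. This core is common: it was found in 38.6% of 27025 mouse promoters of the same length, in 56.2% of 9956 tested genes with a promoter sequence and in 13 of 16 hypoxia genes with one. The next 3 genes were chosen because their windows hold a CArG box, the binding motif of serum response factor in muscle genes, which is in capitals. The windows are chr8:123894776-123895025 for Acta1 (minus strand), chr2:114052876-114053125 for Actc1 (minus strand) and chr11:67237562-67237811 for the fast myosin heavy chain Myh4 (plus strand). The Actc1 window also lies within the span of its GENCODE gene.
Acta1: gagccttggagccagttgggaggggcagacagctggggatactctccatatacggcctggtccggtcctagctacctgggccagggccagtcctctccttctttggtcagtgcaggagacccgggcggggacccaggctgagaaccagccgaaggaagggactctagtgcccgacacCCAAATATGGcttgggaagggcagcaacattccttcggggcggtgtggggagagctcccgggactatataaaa
Actc1: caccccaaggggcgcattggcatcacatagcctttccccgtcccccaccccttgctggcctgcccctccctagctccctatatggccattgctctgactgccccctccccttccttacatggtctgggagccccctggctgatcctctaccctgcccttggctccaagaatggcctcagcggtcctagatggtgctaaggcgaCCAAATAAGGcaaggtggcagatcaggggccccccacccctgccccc
Myh4: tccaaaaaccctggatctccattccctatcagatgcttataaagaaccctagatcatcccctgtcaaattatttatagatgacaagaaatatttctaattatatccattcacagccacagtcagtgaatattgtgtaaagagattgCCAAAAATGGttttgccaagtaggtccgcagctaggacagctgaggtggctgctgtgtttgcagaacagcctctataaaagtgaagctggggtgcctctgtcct
The CArG box began 73 bases before the start in Acta1, 47 in Actc1 and 104 in Myh4, and 1.4% of the 27025 promoters held one. Most muscle genes with a promoter sequence held none. It was found in 4 of 23 sarcomere genes and in 1 of 16 genes of muscle calcium handling and energy supply. Myh4 measured 1230, 37.8 and 428 normalized counts at day 13 and 17.0, 0 and 2.21 at day 23. A match describes these letters only, and binding was not measured.

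Further genes were higher at day 23 without overlap, each of them a DESeq2 call, and all but Prrx1 lie outside the gene lists. Slc14a1, a urea transporter, measured 4.28, 5.56 and 8.57 normalized counts at day 13 and 52.4, 61.7 and 77.8 at day 23, the largest relative gap among these (3.21 ± 0.65, limma adjusted p = 0.167, DESeq2 adjusted p = 0.00155). MC38 cells held 62.5 and 45.9 of it. Thus the day 23 tumors were near the level of the cultured cells and the day 13 tumors were below it. S100a11, a calcium-binding protein, measured 2112, 2876 and 2872 and then 6547, 5196 and 5841 (1.17 ± 0.19, limma adjusted p = 0.123, DESeq2 adjusted p = 8.18e-05). Id4, an inhibitor of bHLH transcription factors, measured 298, 330 and 534 and then 1964, 1268 and 863. In both genes the lowest day 23 tumor was above the highest day 13 tumor, with a wider spread at day 23 for Id4. Gabarap, a protein of the autophagosome membrane, measured 838, 650 and 955 and then 2322, 1200 and 2365. Arsb, a lysosomal sulfatase, measured 508, 455 and 441 and then 854, 894 and 831, with tight values at both days, although 39.9% of its exonic bases lie opposite other genes. Cks2, a subunit of cyclin-dependent kinases, measured 505, 497 and 576 and then 901, 1066 and 1140. Prrx1, a homeobox factor of mesenchymal cells and a member of the list for epithelial-mesenchymal transition, measured 899, 978 and 1054 and then 2427, 1426 and 1884. Prl2c2, a secreted hormone of the prolactin family with near-identical copies that can share reads, measured 21.4, 52.3 and 55.3 and then 317, 234 and 103, against 228 and 350 in MC38 cells.

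The genes of proliferation were centred near 0. The median log2 fold change was 0.03 over 30 genes of mitosis and -0.05 over 30 genes of DNA replication, with 17 and 13 of 30 higher, and 0 called by either tool. Among ribosomal protein genes the median over 22 was -0.01, while Rpl4 measured 15728, 18416 and 18413 normalized counts at day 13 and 7427, 10703 and 5934 at day 23 (-1.17 ± 0.24, limma adjusted p = 0.167, DESeq2 adjusted p = 0.0027). Rps24, outside the list, measured 3278, 3977 and 4706 and then 2121, 2553 and 1820 (DESeq2 adjusted p = 0.0027). Both were lower at day 23 without overlap, and both have processed copies with which reads could be shared. Lonp1, a protease of the mitochondrial matrix (1194, 1311 and 1245, then 691, 866 and 750), and Psmd3, a subunit of the proteasome lid (1814, 1971 and 1353, then 948, 1006 and 958), were DESeq2 calls of the same direction. Bax, which opens the outer mitochondrial membrane in apoptosis, measured 154, 155 and 109 and then 47.1, 76.6 and 54.4 (DESeq2 adjusted p = 0.0164), among 13 of 18 p53 target genes with lower values. Hspb1, a small heat shock protein abundant in muscle, measured 272, 13.3 and 434 and then 5.24, 23.4 and 19. Its days overlapped, and its DESeq2 call (adjusted p = 0.0164) rested on day 13 replicates 1 and 3: without them the limma log2 fold change was 0.015.

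Transcripts of the mitochondrial genome took a larger share of the normalized counts at day 23. The share was 5.58% to 6.30% in the day 13 tumors and 10.1% to 11.2% in the day 23 tumors, with no overlap, and 5.54% to 10.4% over the 6 wild-type tumors. The mitochondrial 16S rRNA mt-Rnr2 alone made up 2.41% to 2.69% and 5.54% to 6.24%. Among 8 tested protein-coding genes of this genome 7 had higher values (median 0.38), 5 of them without overlap (9.48% of all genes tested). mt-Nd5, a subunit of complex I, measured 8113, 7790 and 9075 normalized counts and then 17388, 18182 and 15429 (1.03 ± 0.24, limma adjusted p = 0.167, DESeq2 adjusted p = 0.00808). mt-Nd2 of the same complex measured 25444, 21152 and 20985 and then 58453, 55788 and 38443 (DESeq2 adjusted p = 0.00562). Nuclear genes of the respiratory chain had a median of 0.06, with 16 of 26 higher and 0 called. Whether RNA quality had a part in the mitochondrial share was not tested.

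**Figure D3:**
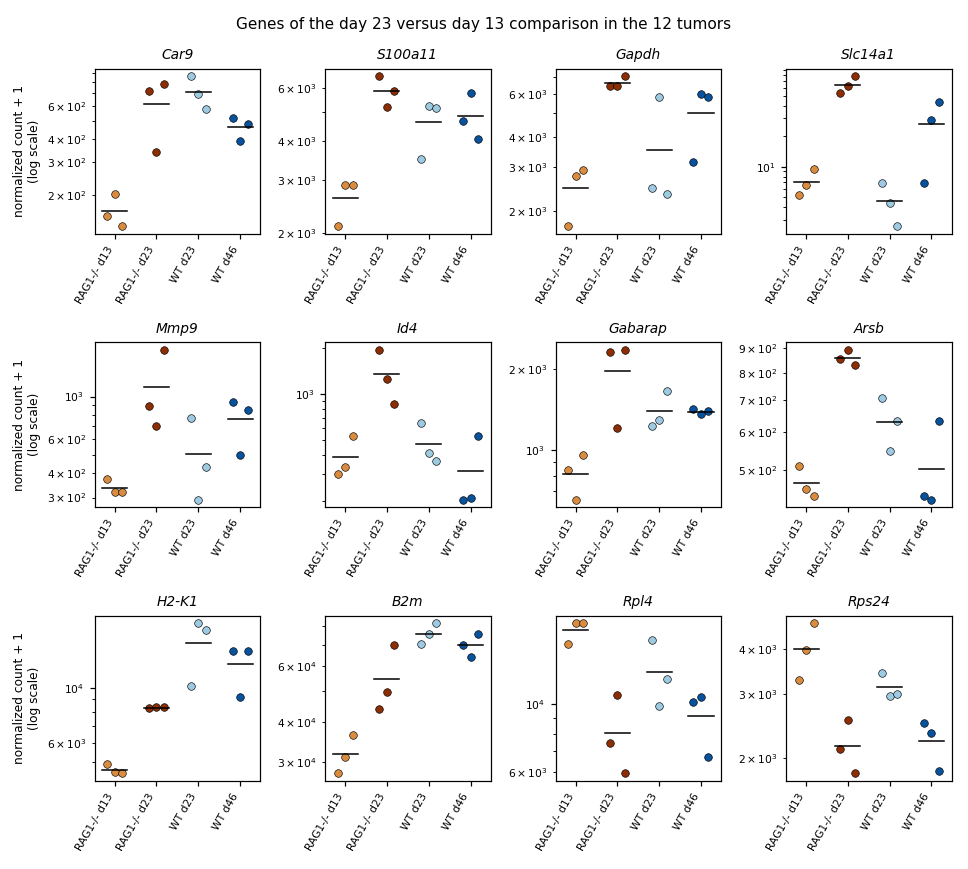
Normalized count + 1 (log axis) of 12 genes in the tumors of 4 groups, RAG1-/- at day 13 and day 23 and wild-type at day 23 and day 46, with a point for each of 3 libraries and a bar at the mean. Car9 and Slc14a1 separate the RAG1-/- days, H2-K1 and B2m are higher in wild-type tumors than at RAG1-/- day 13, and Rpl4 and Rps24 run in the opposite direction.

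MHC class I molecules show peptides of the cell to T cells and restrain NK cells. H2-K1, a classical class I heavy chain, measured 4927, 4568 and 4516 normalized counts at day 13 and 8311, 8350 and 8384 at day 23, with a log2 fold change of 0.84 ± 0.21 (limma adjusted p = 0.176, DESeq2 adjusted p = 0.0201). B2m, the light chain shared by class I molecules, measured 27619, 31023 and 36312 and then 44033, 49519 and 69753 (0.76 ± 0.21, limma adjusted p = 0.208, DESeq2 adjusted p = 0.00666). Of the 6 fits that left out 1 tumor, the DESeq2 call was kept in 1 for H2-K1 and in 4 for B2m. Neither gene overlapped between the days, and heavy chains are a family whose members can share reads. The list as a whole did not follow, with 9 of 17 class I genes higher and a median of 0.04. Tap2, a subunit of the peptide transporter, had lower values at day 23 (337, 366 and 196, then 168, 149 and 158; limma adjusted p = 0.291). The interferon gamma list, 23 genes tested, had a median of 0.00 with 12 higher and 11 lower, and the type I interferon list, 25 genes, a median of 0.09. In both interferon lists 0 genes were called by limma or DESeq2.

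Immune cell lists differed in their medians. Over the 12 tumors none of the immune genes described here but Mmp9 was called by limma or DESeq2. The DESeq2 fit of the 6 tumors alone, which called 452 genes, called Ccl5, Cxcl2, Cxcl3 and Ms4a4c (adjusted p = 0.0188, 0.0364, 0.0353 and 0.0382). Without day 23 replicate 2, DESeq2 called Ccr2 (adjusted p = 0.0277) among 349 genes. Among 20 macrophage genes 11 had higher values (median 0.02), and Adgre1, a surface receptor of mature macrophages, measured 613, 832 and 963 normalized counts at day 13 and 706, 834 and 821 at day 23. Cd163, a scavenger receptor of tissue macrophages, measured 23.5, 1.11 and 18.1 and then 0, 2.13 and 1.33, so that day 13 replicate 2 lay within the day 23 range (-2.36 ± 0.98, limma adjusted p = 0.364). Among 10 monocyte genes 7 had lower values (median -0.59). Ccr2, the chemokine receptor of inflammatory monocytes, measured 320, 530 and 853 and then 135, 519 and 220, with overlap (-1.07 ± 0.53, limma adjusted p = 0.449). Without overlap 1 monocyte gene was lower (9.92% of all genes tested) and 1 was higher (9.48%). The lower one was Ms4a4c, a membrane protein, at 278, 324 and 285 and then 113, 189 and 194 (-0.87 ± 0.40, limma adjusted p = 0.417). Of 8 tested mast cell and eosinophil genes 7 had lower values, with a median of -1.28, 2 of them without overlap (9.92% of all genes tested) and 0 called. Kit, the receptor of stem cell factor on mast cells, measured 33.2, 24.5 and 44.8 and then 3.93, 19.2 and 17.2 (-1.49 ± 0.62, limma adjusted p = 0.367). Cpa3, a carboxypeptidase of mast cell granules, measured 40.6, 25.6 and 41.9 and then 3.93, 46.8 and 8.84, so that day 23 replicate 2 was the highest of the 6 tumors. Skin held 717 and 389 normalized counts of Cpa3 and MC38 cells 0. Among 13 neutrophil genes 4 had higher values (median -0.13), and the 1 DESeq2 call was Mmp9, given above (0.605% of all genes were called higher). Without overlap 1 was higher and 2 were lower (9.48% and 9.92% of all genes tested). Cxcl3, a chemokine for neutrophils, measured 11.8, 4.45 and 0.953 and then 24.9, 100 and 9.28, with overlap (2.54 ± 1.03, limma adjusted p = 0.356). Trem1, an activating receptor of neutrophils, measured 64.2, 63.4 and 62.9 and then 22.3, 14.9 and 36.2, lower without overlap (-1.43 ± 0.37, limma adjusted p = 0.182, DESeq2 adjusted p = 0.0726). Among 18 NK and cytotoxic genes 13 had higher values (median 0.23), 2 without overlap (9.48% of all genes tested), and 1 was lower without overlap (9.92%). Ccl5, a chemokine that MC38 cells also made, measured 721, 813 and 684 and then 1139, 911 and 1859 (0.75 ± 0.29, limma adjusted p = 0.335). The NK receptor Ncr1 was at 5.35, 4.45 and 8.57 and then 0, 0 and 6.63 normalized counts, too few reads to follow. Cxcl2, which draws neutrophils, measured 31.0, 35.6 and 20.01 and then 55.0, 126 and 66.7, without overlap (1.43 ± 0.50, limma adjusted p = 0.287).

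Checkpoint molecules, a subject of the study, gave no call between the RAG1-/- days. Cd274, the ligand PD-L1, measured 122, 119 and 81.9 normalized counts at day 13 and 137, 121 and 103 at day 23 (0.18 ± 0.29, limma adjusted p = 0.869). Havcr2, the receptor TIM-3, measured 132, 131 and 103 and then 96.9, 115 and 115 (-0.15 ± 0.24, limma adjusted p = 0.862). Both overlapped between the days. The T-cell receptors PD-1 (Pdcd1) and LAG-3 (Lag3) had 7 and 2 reads at day 13 and 6 and 4 at day 23, and Ctla4 had 0 reads in all 6 libraries, too few to compare the days. Cxcl9, a chemokine induced by interferon gamma, measured 127, 96.7 and 88.6 and then 58.9, 29.8 and 94.6, with overlap (-0.89 ± 0.44, limma adjusted p = 0.446). Its level in the 6 wild-type tumors was 736 to 3899. Of 8 tested checkpoint genes 2 had higher values (median -0.15) and 0 were called.

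Genes of red cells and platelets had a median log2 fold change of 1.17 over 12 tested genes. Of these, 8 were higher, 6 of them without overlap (9.48% of all genes tested). The platelet genes divided, with Ppbp at 1.19, Pf4 at 0.10, Gp1bb at -0.09 and Itga2b at -0.75. Not all red cell genes were higher either, with Slc4a1 at -0.50 and Bpgm at -0.015. Hbb-bs, a beta chain of hemoglobin, measured 845, 1020 and 881 normalized counts at day 13 and 2711, 2081 and 4208 at day 23. Hba-a1, an alpha chain, measured 294, 362 and 463 and then 1379, 955 and 2527. The limma fit of the 6 tumors alone called both (adjusted p = 0.0268 and 0.0321), the fit of the 12 tumors called neither (0.411 and 0.409), and the chains have near-identical copies. In the wild-type tumors Hbb-bs ranged from 621 to 17810. The amount of blood in each piece was not measured.

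**Figure D4:**
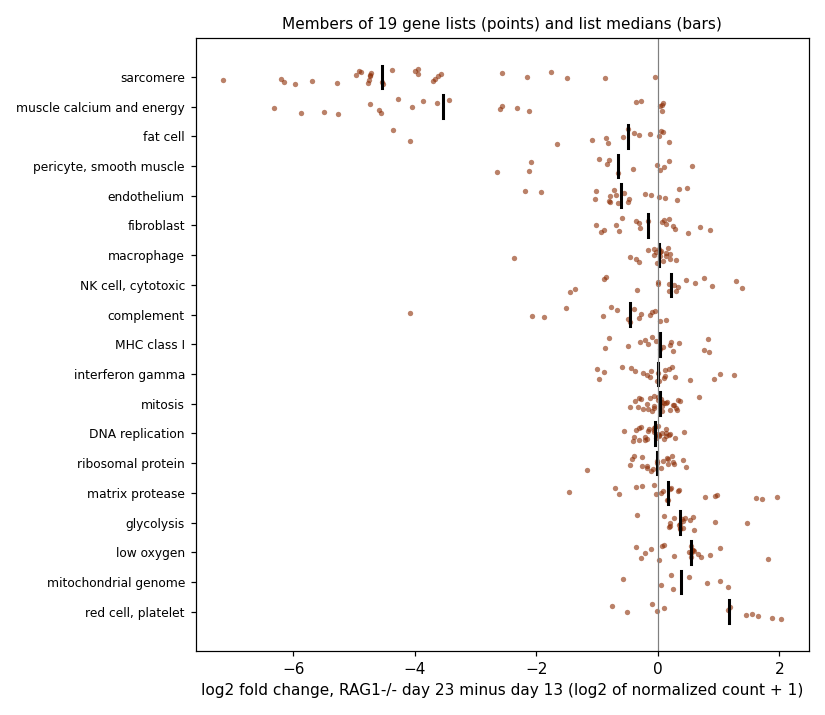
Log2 fold change, day 23 minus day 13, of each tested member (points) and the list median (bar) for lists named in the text, on the scale of log2(normalized count + 1). The 2 muscle lists lie far below 0, with medians of -4.53 and -3.53, and the hypoxia and glycolysis medians lie above 0 at 0.54 and 0.37.

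Whether these differences were particular to RAG1-/- hosts was tested by setting them against the change in wild-type tumors from day 23 to day 46. Neither the days nor the named strains of the 2 genotypes are the same. limma found 0 of 14746 genes at an adjusted p under 0.05 for this difference of differences and 1279 (8.67%) at an unadjusted p under 0.05. edgeR found 0, with 1306 (8.86%) at an unadjusted p, and DESeq2 called 58 of 14717 (0.394%), 22 higher (0.149%) and 36 lower (0.245%), with 1375 (9.34%) at an unadjusted p. For Car9 the difference of differences was 2.44 ± 0.39 on the log2 scale (limma adjusted p = 0.148, DESeq2 adjusted p = 2.59e-06). For Tagln it was -4.55 ± 0.86 (limma adjusted p = 0.205, DESeq2 adjusted p = 0.000232), since its wild-type values went up from 13.6 to 28.0 at day 23 to 36.4 to 113 at day 46. For Tnnt3 it was -6.86 ± 2.09 (limma adjusted p = 0.4, DESeq2 adjusted p = 0.0271). From wild-type day 23 to day 46 the sarcomere genes had a median of 0.62 on the log2 scale, with 26 of 30 higher, and their summed level in these 6 tumors ranged from 1584 to 4807 normalized counts. The hypoxia list had a median of -0.25 there, with 2 of 20 higher. For Gapdh (0.90 ± 0.45, DESeq2 adjusted p = 0.476), Mmp9 (0.95 ± 0.50, 0.423) and Slc14a1 (0.95 ± 0.92, 0.939) no tool found the 2 courses to differ.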

How the data were processed

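RNA of 16 libraries (12 tumors, 2 of MC38 cells, 2 of skin) was made into QuantSeq 3′ libraries (Lexogen), which give 1 tag near the 3′ end per transcript, and sequenced on the Ion Proton. Per the study's methods and processing notes, the authors trimmed reads with Cutadapt and Trimmomatic (reads under 22 nt removed), aligned them to mm10 with STAR and then Bowtie2, kept the primary alignment of reads with several hits, removed rRNA reads, counted genes with HTSeq and scaled the counts with DESeq2. Tool versions, the annotation and the use of strand are not given in the sources used here. The deposited values are thus a normalized signal, reads divided by a DESeq2 size factor, for 46882 genes. Whole reads were recovered for 100% of the values (tolerance 0.01 reads). A further table with 6 columns that the labels of these samples do not match was not used here.

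Samples were grouped by title. Normalized counts were put on the scale log2(value + 1), and limma 3.58.1 (R 4.3.3) fitted 4 groups of 12 tumors with a trended prior, leaving 8 residual degrees of freedom. Genes had to reach a mean of 5 over these tumors, and two-sided p-values were adjusted by Benjamini-Hochberg. Fold changes are on that scale and understate the change of low genes. The recovered reads were also tested by edgeR 4.0.16 (quasi-likelihood) and by DESeq2 1.42.0, each as an alternative. The scripts were tested on simulated data. Intervals and floors (3 reads) cover counting error only. The 6 tumors were taken by their labels, while the choice of this comparison and of the 46 gene lists (868 genes) was made with earlier results of these data known. Genes were named by these rules: up to 15 per direction with the lowest p and no overlap, up to 10 per direction by DESeq2 fold change, up to 4 per list, the checkpoint genes, and the cell type markers. From these a selection is printed. Gene positions are from GENCODE vM21, promoters from RefSeq on GRCm38.p6.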

Additional observations from a re-analysis of the deposited data

How the results depend on the processing

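limma called 0 genes between day 13 and day 23 with other pseudocounts, filters and scalings, and edgeR also called 0. It called 13 (7 higher, 6 lower) with array weights, 23 (17 higher, 6 lower) on the 6 tumors alone, and DESeq2 called 206. With 1 replicate left out limma called 0 to 37, which was 37 without day 13 replicate 2 (2 higher, 35 lower) and 4 without day 23 replicate 2. For the difference from the wild-type course the counts were 45 with array weights, 58 with DESeq2 and 0 to 5 with 1 replicate left out, the 5 without day 13 replicate 2, 3 without day 23 replicate 2, and 1 and 2 without wild-type day 46 replicates 1 and 3. The fits that left out replicates in DESeq2, and those without day 13 replicates 1 and 3 together, were chosen after seeing the data. In them DESeq2 called 21, 160 and 86 genes without day 13 replicates 1, 2 and 3, 35, 349 and 77 without day 23 replicates 1, 2 and 3, 0 without day 13 replicates 1 and 3, 178 with a mean of at least 20, and 452 (215 higher, 237 lower) on the 6 tumors alone, of which 191 were among the 206. Muscle-list genes were 27 of the 206 calls, 4 without day 13 replicate 1 and 29 without day 13 replicate 2. The cause of these shifts was not tested.

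Total scaling moved the median of all genes from -0.01 to -0.13 and upper quartile scaling to -0.08, and higher and lower are relative to that shift. Of the genes named, the sign turned for Adgre1 (-0.01 as reported, -0.19 to 0.14 with 1 replicate left out, 0.03 and 0.14 without day 13 replicate 2 or 3, 0.07 without day 23 replicate 1), for Cd274 (-0.0064 without day 13 replicate 3, -0.0064 to 0.28 with 1 replicate left out) and, without day 13 replicates 1 and 3, for Hspb1 (0.015) and Krt14 (0.41). Same-numbered tumors of the 2 days did not deviate together (correlations -0.05, -0.15 and 0.09), so the numbers were not taken as pairs. A replicate block gave 0 calls in both comparisons, with 1861 and 1364 genes at an unadjusted p under 0.05. The shallowest library, day 23 replicate 2 with 5589151 reads, sets the highest floor.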
